A study of Saccharomyces cerevisiae with 12 samples.

Results

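SLT2 and KDX1 are a pair of paralogous genes of budding yeast, and they are the 2 of 7126 genes in the deposited expression table whose listed names are SLT2 and KDX1. Slt2, also called Mpk1, is the mitogen-activated protein (MAP) kinase of the cell wall integrity pathway, and Kdx1, also called Mlp1, is its catalytically inactive relative, a pseudokinase. The libraries came from strain BY4741 in 4 groups of 3 libraries each. These were wild type grown with 100 µg/ml poacic acid for 1 h, wild type without the compound, the slt2 mutant with the same dose and time, and the slt2 mutant without it. Poacic acid is a plant stilbenoid that binds glucan in the fungal cell wall, and the labels spell it "poacid acid". Both strains carry the BY4741 background and differ, per the labels, in slt2 alone. The labels name the mutant only as slt2, and do not say how the mutation was made or from how many isolates the libraries were grown. The growth text gives 2 h of further growth where the treatment text gives 1 h with the compound.

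In the cell wall integrity pathway, sensors in the plasma membrane recruit exchange factors for the GTPase Rho1, which activates protein kinase C. Pkc1 then starts a chain of kinases in which Bck1 phosphorylates Mkk1 and Mkk2, and these phosphorylate Slt2 on the threonine and tyrosine of its activation loop. Active Slt2 phosphorylates the transcription factor Rlm1 and also acts through the SBF factor, which consists of Swi4 and Swi6. SLT2 and KDX1 are themselves known Rlm1 target genes, so the kinase stands both above and among the targets of the pathway. Slt2 and Kdx1 are also known to take part with Swi4 in the induction of the glucan synthase gene FKS2, listed here as GSC2, without kinase activity.

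Library depth was 3462650 to 10542487 reads, and between 6209 and 6323 genes were listed above 0 in each library. The share of reads on rRNA genes differed between the strains. It was 0.0716 to 0.585% in untreated wild type, 0.0763 to 3.83% in treated wild type and 3.76 to 5.18% in the slt2 libraries. Whether this bears on the strain comparisons was not tested. Of the auxotrophic markers of BY4741, LEU2 was at 0 in 12 libraries, and URA3 and MET17 in 11 each, with at most 4 and 1 reads in the remaining library, whereas HIS3, which this background is known to lack only in part, was listed at 39.1 to 75.0 RPKM (reads per length of the gene and per size of the library). The a-cell genes STE2 and BAR1 were listed at 107 to 331 and 81.2 to 154 RPKM. Of the alpha-cell genes, MF(ALPHA)1 had at most 2 reads, while STE3, MF(ALPHA)2 and SAG1 were above 0 in every library, at 0.293 to 2.02, 4.96 to 11.1 and 6.79 to 11.9 RPKM. The short a-factor genes MFA1 and MFA2 were at 0 in 3 and 1 libraries. The series text speaks of 3 biological samples per strain, each used with and without the compound, and does not say whether these were separate cultures, so the p-values measure the spread between these libraries, which may be technical.

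Both genes lie on the minus strand of the R64 genome and overlap no other annotated gene. SLT2 (YHR030C) is 1 coding exon of 1455 bases at chrVIII:168890-170344, and KDX1 (YKL161C) is 1 coding exon of 1302 bases at chrXI:149386-150687. Their translations have 484 residues for Slt2 and 433 for Kdx1, and 229 of 432 aligned residues were identical (53.0%). The likeness was unequal along the proteins: before the first gap 217 of 364 residues were identical (59.6%), and after it 12 of 68 (17.6%). At the level of DNA 58.9% of aligned coding bases were identical, and the longest run shared by both coding sequences was 11 bases.

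The stretches below are coding exon sequence from RefSeq (R64, minus strand, 5′ to 3′) and are shown because they hold the positions at which a kinase and a pseudokinase differ. In the first pair, codons 48 to 59 of both genes, the capitals mark the codon of the lysine that binds ATP in Slt2 and the KDX1 codon aligned with it (chrVIII:170168-170203 and chrXI:150511-150546).
SLT2: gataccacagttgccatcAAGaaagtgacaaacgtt
KDX1: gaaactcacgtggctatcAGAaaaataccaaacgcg
In the second pair, codons 149 to 197 of both genes, the capitals mark in order the codons of the catalytic loop HRD, of the metal-binding DFG and of the activation loop TEY of Slt2, with the KDX1 codons aligned with them (chrVIII:169754-169900 and chrXI:150097-150243).
SLT2: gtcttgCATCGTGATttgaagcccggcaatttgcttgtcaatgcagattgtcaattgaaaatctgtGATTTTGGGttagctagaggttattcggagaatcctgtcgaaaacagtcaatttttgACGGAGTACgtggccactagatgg
KDX1: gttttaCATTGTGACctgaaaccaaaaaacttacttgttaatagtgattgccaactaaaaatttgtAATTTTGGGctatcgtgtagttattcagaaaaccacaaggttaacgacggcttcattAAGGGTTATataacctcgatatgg

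With the Slt2 residue first and positions counted from the initial methionine of Slt2, the ATP-binding lysine differed as K54R, the catalytic loop as R152C, the DFG as D171N, and the activation loop as T190K and E191G. Of the glycines of the glycine-rich loop, the last differed as G35S, and those at codons 30 and 32 were encoded by both genes. The activation loop tyrosine at codon 192, the HRD aspartate at codon 153 and the histidine at codon 151 were encoded by both genes.

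The upstream regions were compared because both genes are known targets of Rlm1. The word searched for Rlm1 was CTA and TAG with the 4 bases between them left free. The share of windows with it is therefore an upper limit for any stricter form of the binding element. Within 1000 bases before the start codon neither gene held that word on either strand, while 1120 of 6638 such windows did (16.9%). The 1000-base window of SLT2 runs into the neighbouring gene RRM3, which begins after a gap of 454 bases and reaches to 2626 bases upstream. The part of the SLT2 window beyond that gap thus lies within RRM3, whereas the next gene upstream of KDX1 is 2581 bases away. The longest run shared by both windows was 12 bases, and within it stood the word TAAAAATAG, which was chosen after the windows were compared. It was found 232 bases before the SLT2 start codon and 509 and 358 bases before the KDX1 start codon, each time on the coding strand, and in 221 of 6638 windows (3.33%). It forms part of the word searched for Rlm1 where a C precedes it. These sites are printed below in capitals with 25 flanking bases on each side (R64, minus strand, chrVIII:170543-170601, chrXI:151163-151221 and chrXI:151012-151070).
SLT2, 232 bases before the start codon: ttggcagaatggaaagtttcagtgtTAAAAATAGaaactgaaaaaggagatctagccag
KDX1, 509 bases before the start codon: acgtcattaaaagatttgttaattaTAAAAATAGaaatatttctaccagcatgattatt
KDX1, 358 bases before the start codon: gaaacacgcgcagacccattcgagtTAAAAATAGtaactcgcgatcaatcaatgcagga
The word CGCGAAA, which SBF is known to bind, was in neither window and in 505 of 6638 (7.61%). Of the 28 other target genes described below, 15 held the word searched for Rlm1, 7 held TAAAAATAG and 2 held CGCGAAA. A match is a description of these letters and not evidence of binding.

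SLT2 checked the strain labels. It was listed at 0, 0.199 and 0.145 RPKM in the 3 treated slt2 libraries, against 194, 199 and 236 RPKM in the treated wild-type libraries. These values stand for 0, 1 and 1 reads in treated slt2 and 1537, 3059 and 2456 reads in treated wild type. Without the compound, SLT2 was at 0 in all 3 slt2 libraries and at 42.1, 45.8 and 49.99 RPKM in the wild-type libraries, from 645, 372 and 550 reads. The mutant libraries thus held next to no SLT2 reads in either condition, and no library went against its label. The ratio of SLT2 reads in treated wild type over those in treated slt2, scaled to library size, was 2422, with a 95% interval of 670.1 to 20001 from counting error only. In untreated slt2, SLT2 was at least 423-fold lower than in untreated wild type, taking 3 reads over the 3 libraries as the limit that a count of 0 allows.

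In wild type, SLT2 itself rose with poacic acid. RPKM is a share of each library, so more cells with a transcript and more of it per cell cannot be told apart here. SLT2 averaged 209.5 ± 22.8 RPKM in treated wild type and 46.0 ± 3.95 RPKM in untreated wild type (SD, n = 3 each), a 4.56-fold difference of the means. The treated libraries did not overlap the untreated ones, and their lowest value was 194 RPKM against a highest of 49.99 RPKM without the compound. On the log2(RPKM + 1) scale the difference was 2.16 ± 0.15 (SE), with an adjusted p of 1.95e-06 by limma, the 14th largest difference upward among 6222 tested genes. For reference, 5.83% of tested genes passed the same threshold of adjusted p under 0.05 in this comparison, 3.87% upward and 1.96% downward. SLT2 stood above 92.3 to 94.1% of tested genes in the treated libraries and above 70.1 to 72.0% in the untreated ones.

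KDX1 was a scarce transcript in untreated cells and an abundant one in treated wild type. It was listed at 65.5, 96.5 and 68.4 RPKM in treated wild type, from 465, 1325 and 638 reads, against 5.54, 5.23 and 4.06 RPKM in untreated wild type, from 76, 38 and 40 reads. In the mutant it was listed at 1.20, 2.44 and 2.10 RPKM with the compound, from 12, 11 and 13 reads, and at 2.502, 1.99 and 1.59 RPKM without it, from 26, 16 and 10 reads. Every treated wild-type library was above every other library, and every untreated wild-type library was above every slt2 library, whereas the treated and untreated slt2 libraries overlapped. By mean level the order was treated wild type (76.8 ± 17.2 RPKM), untreated wild type (4.94 ± 0.779 RPKM), untreated slt2 (2.03 ± 0.456 RPKM) and treated slt2 (1.91 ± 0.642 RPKM; SD, n = 3 each), and the last 2 groups did not differ beyond their spread. A gene with KDX1's length had a limit of 0.219 to 0.665 RPKM for a count of 0, so the slt2 values lie above that limit but rest on few reads. For the untreated slt2 library with the fewest reads, 10, the exact Poisson 95% interval was 0.763 to 2.93 RPKM.

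**Figure D1:**
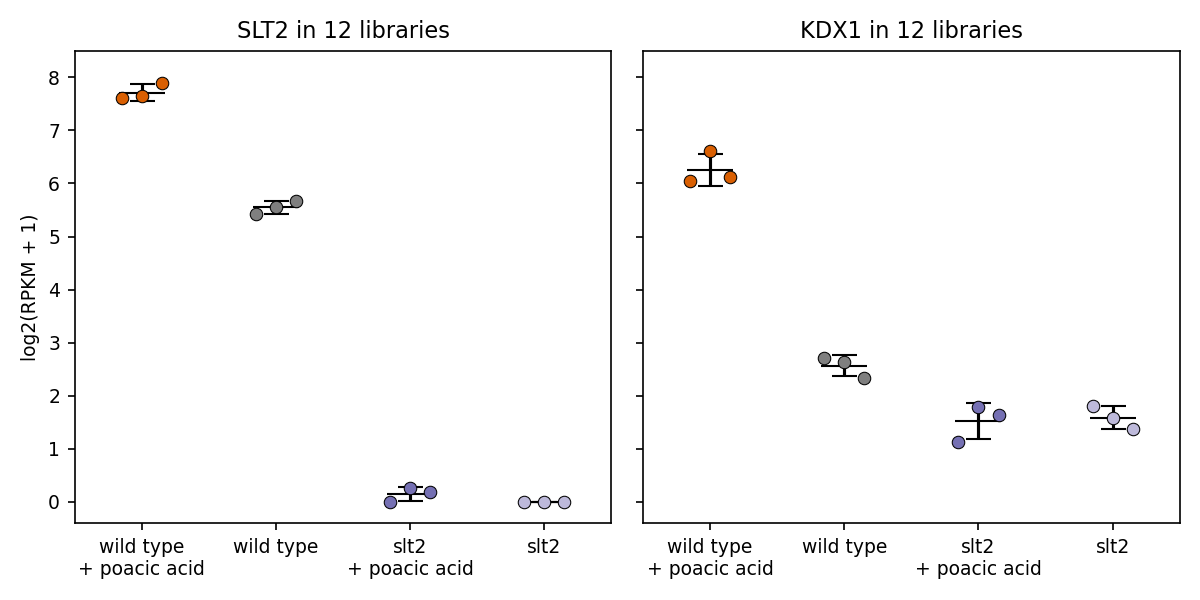
Levels of SLT2 (left) and KDX1 (right) in the 12 libraries, on the log2(RPKM + 1) scale. Points are libraries, the long bar is the group mean and the short bars are 1 SD (n = 3). Both genes are highest in wild type with poacic acid. SLT2 has at most 1 read in any slt2 library, and KDX1 lies at 1.20 to 2.502 RPKM in slt2 with or without the compound.

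The KDX1 response in wild type was one of the largest in the table. The fold of the means was 15.5, and on the log2(RPKM + 1) scale the difference was 3.70 ± 0.22 (SE), with an adjusted p of 1.3e-06 by limma. It stood at rank 2 of 6222 tested genes by size upward. In slt2 the compound gave KDX1 a log2 difference of -0.07 ± 0.22 (SE), with a 95% interval of -0.55 to 0.41 and an adjusted p of 0.91 by limma. In that comparison 8.45% of tested genes passed the threshold, 5.29% upward and 3.17% downward. The slt2 difference changed sign when treated replicate 1 was left out (0.12) or untreated replicate 1 was left out (0.04). The interval reaches no further up than 0.41, well below the wild-type difference of 3.70.

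The difference between the responses of the strains was tested directly. For KDX1 the slt2 response minus the wild-type response was -3.77 ± 0.32 (SE) on the log2 scale, with an adjusted p of 3.33e-05 by limma, and this was the most negative value among 6222 tested genes. In that test 1.72% of tested genes passed the threshold, 0.996% with a lower and 0.723% with a higher response in slt2. The rank of KDX1 holds for the main fit and not for every alternative. Over the alternatives that kept all libraries, the gene YKL102C reached -5.04 and KDX1 went no lower than -4.03. With poacic acid, KDX1 averaged 40.1-fold lower in slt2 than in wild type (36 against 2428 reads over 3 libraries each), a log2 difference of -4.74 with an adjusted p of 1.63e-08 by limma. In that comparison of treated cells 8.21% of genes passed the threshold, 4.23% downward and 3.99% upward.

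Without the compound KDX1 was 2.44-fold lower in slt2 than in wild type (52 against 154 reads over 3 libraries each). The log2 difference was -0.98 ± 0.22 (SE), with an adjusted p of 0.044 by limma, and 1.75% of tested genes passed the threshold in this comparison, 0.868% downward and 0.884% upward. The untreated groups did not overlap, yet the call rested on every library: leaving out any 1 of the 6 gave adjusted p from 0.0652 to 0.15. It was also lost with a pseudocount of 5 (adjusted p = 0.0818) and with median-of-ratios scaling (adjusted p = 0.0511).

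Within wild type the pair changed by unequal factors. KDX1 stood at 33.8, 48.4 and 29.0% of the SLT2 RPKM in the treated libraries, against 13.2, 11.4 and 8.13% in the untreated ones. The mean share was 37.1 ± 10.1% in treated wild type and 10.9 ± 2.56% in untreated wild type (SD, n = 3 each), a 3.39-fold difference of the ratios or 1.76 on the log2 scale. The groups did not overlap, and the exact permutation test (two-sided) gave p = 0.1, the smallest p that 3 against 3 libraries allow. With the libraries paired by replicate number, an exact sign-flip test gave p = 0.25, the smallest p that 3 pairs allow. The treated replicates were not ordered alike for both genes, since KDX1 was highest in replicate 2 and SLT2 in replicate 3.

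**Figure D2:**
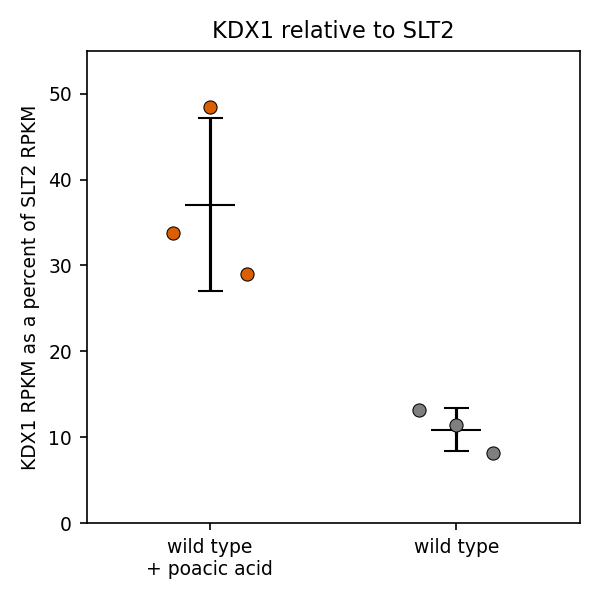
KDX1 RPKM as a percent of SLT2 RPKM in each of the 6 wild-type libraries. Points are libraries, the long bar is the mean and the short bars are 1 SD (n = 3). The treated libraries sit between 29.0 and 48.4%, all above the untreated ones at 8.13 to 13.2%.

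The other MAP kinase genes were set beside the pair. HOG1, the kinase of the osmotic stress pathway, averaged 145 ± 8.22 RPKM in treated wild type and 106 ± 7.39 RPKM in untreated wild type (SD, n = 3 each), a log2 difference of 0.45 with an adjusted p of 0.0289 by limma. That call was lost in 5 of 6 fits that left out a wild-type library, the exception being treated replicate 1. In treated slt2 HOG1 was lower than in treated wild type by a log2 difference of -0.76 (85.5 ± 5.31 against 145 ± 8.22 RPKM, adjusted p = 0.000451 by limma). Without the compound the HOG1 difference between the strains did not pass (-0.30, adjusted p = 0.131 by limma), beside a median of -0.08 over all tested genes. The HOG1 responses of the strains did not differ by test (-0.46, adjusted p = 0.197 by limma). The mating and filamentation kinases FUS3 and KSS1 and the sporulation kinase SMK1 had log2 differences of -0.34, 0.19 and 0.15 in wild type and passed no test. So 1 of 4 other MAP kinase genes rose in wild type, beside 3.87% of all tested genes called upward. None of the 4 passed in slt2, beside 8.45% of all tested genes in either direction, and 4 genes are too few to set apart from that share. The median of the 4 in wild type was 0.17 against 0.02 over all tested genes.

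Above SLT2 in the cascade, no kinase transcript passed the test. PKC1, BCK1, MKK1 and MKK2 had log2 differences between 0.01 and 0.12 in wild type and between -0.15 and 0.07 in slt2, in every case short of the threshold. MKK1 averaged 29.8 ± 0.98 RPKM in treated wild type and 27.5 ± 3.35 RPKM in untreated wild type, and BCK1 20.5 ± 1.27 and 20.5 ± 2.23 RPKM (SD, n = 3 each).

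Of 24 cascade genes and regulators, all of them tested, 6 rose in wild type and 0 fell, beside 3.87% of all tested genes called upward and 1.96% downward, with a median log2 difference of 0.15 against 0.02 over all tested genes. Among the sensors, 1 of 5 rose: MID2 averaged 74.6 ± 21.4 RPKM in treated wild type and 40.4 ± 6.41 RPKM in untreated wild type (SD, n = 3 each; log2 difference 0.84, adjusted p = 0.0279 by limma). RHO1, the GTPase itself, averaged 451 ± 26.5 RPKM in treated wild type and 304 ± 19.0 RPKM in untreated wild type (0.57, adjusted p = 0.0043 by limma). Of 4 GTPase-activating proteins only BAG7 rose, at 4.85 ± 1.36 against 1.68 ± 0.366 RPKM (1.11, adjusted p = 0.0399 by limma), and none of the 3 exchange factors passed. The MID2 and BAG7 calls were each lost when single wild-type libraries were left out, with adjusted p up to 0.108 and 0.168.

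Below SLT2, the transcription factor RLM1 was listed at 72.4, 53.8 and 77.7 RPKM in treated wild type, against 27.3, 30.1 and 26.4 RPKM in untreated wild type. In slt2 it was listed at 25.5, 22.9 and 24.8 RPKM with the compound and 27.3, 24.5 and 19.2 RPKM without it. RLM1 was thus high in the treated wild-type libraries alone, and the slt2 groups overlapped. Its log2 difference was 1.24 in wild type (adjusted p = 0.000295) and 0.06 in slt2 (adjusted p = 0.891), and the difference between these was -1.18 (adjusted p = 0.0136; all by limma). SWI4, the DNA-binding subunit of SBF, averaged 7.28 ± 0.568 RPKM in treated slt2 and 13.7 ± 1.67 RPKM in untreated slt2 (SD, n = 3 each), a log2 difference of -0.82 with an adjusted p of 0.0325 by limma. That call was lost in 4 of 6 fits without a slt2 library (adjusted p 0.0405 to 0.131 over the 6), and the SWI4 responses of the strains did not differ by test (-0.31, adjusted p = 0.754 by limma).

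The phosphatases that act on Slt2 divided into a pair that rose and a pair that did not pass. MSG5, a dual-specificity phosphatase, was listed at 47.5, 58.1 and 65.1 RPKM in treated wild type, against 25, 25.1 and 25.6 RPKM in untreated wild type. In slt2 it was listed at 21.5, 24.8 and 21.9 RPKM with the compound and 26.9, 22.1 and 21.7 RPKM without it. The treated wild-type libraries alone stood apart, with a log2 difference of 1.13 in wild type (adjusted p = 0.000198) and a difference between the responses of -1.18 (adjusted p = 0.00482; both by limma). The tyrosine phosphatase PTP2 was listed at 24.97, 36.04 and 28.1 RPKM in treated wild type and 8.89, 12.1 and 8.57 RPKM in untreated wild type. In slt2 it was listed at 8.54, 8.59 and 7.47 RPKM with the compound and 5.505, 5.46 and 4.78 RPKM without it, so treated libraries were above untreated ones in both strains. Its log2 difference was 1.5 in wild type (adjusted p = 0.00015) and 0.56 in slt2 (adjusted p = 0.0641), and the difference between these did not pass (-0.94, adjusted p = 0.0785; all by limma). SDP1 and PTP3 had wild-type log2 differences of 0.18 and -0.16 and did not pass.

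In slt2, 2 of the 24 cascade genes (RHO1 and WSC2) rose and SWI4 fell, beside 5.29% of all tested genes called upward and 3.17% downward, with a median log2 difference of 0.10 against 0.03 over all tested genes. RHO1 averaged 385 ± 22.8 RPKM in treated slt2 and 291 ± 10.4 RPKM in untreated slt2 (0.40, adjusted p = 0.0246 by limma), a call that was lost in 5 of 6 fits without a slt2 library. The sensor gene WSC2 averaged 127 ± 18.5 RPKM in treated slt2 and 71.6 ± 8.53 RPKM in untreated slt2 (0.82, adjusted p = 0.00276 by limma). RLM1 and MSG5 were the 2 of 24 whose responses differed between the strains by test, beside 1.72% of all tested genes.

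**Figure D3:**
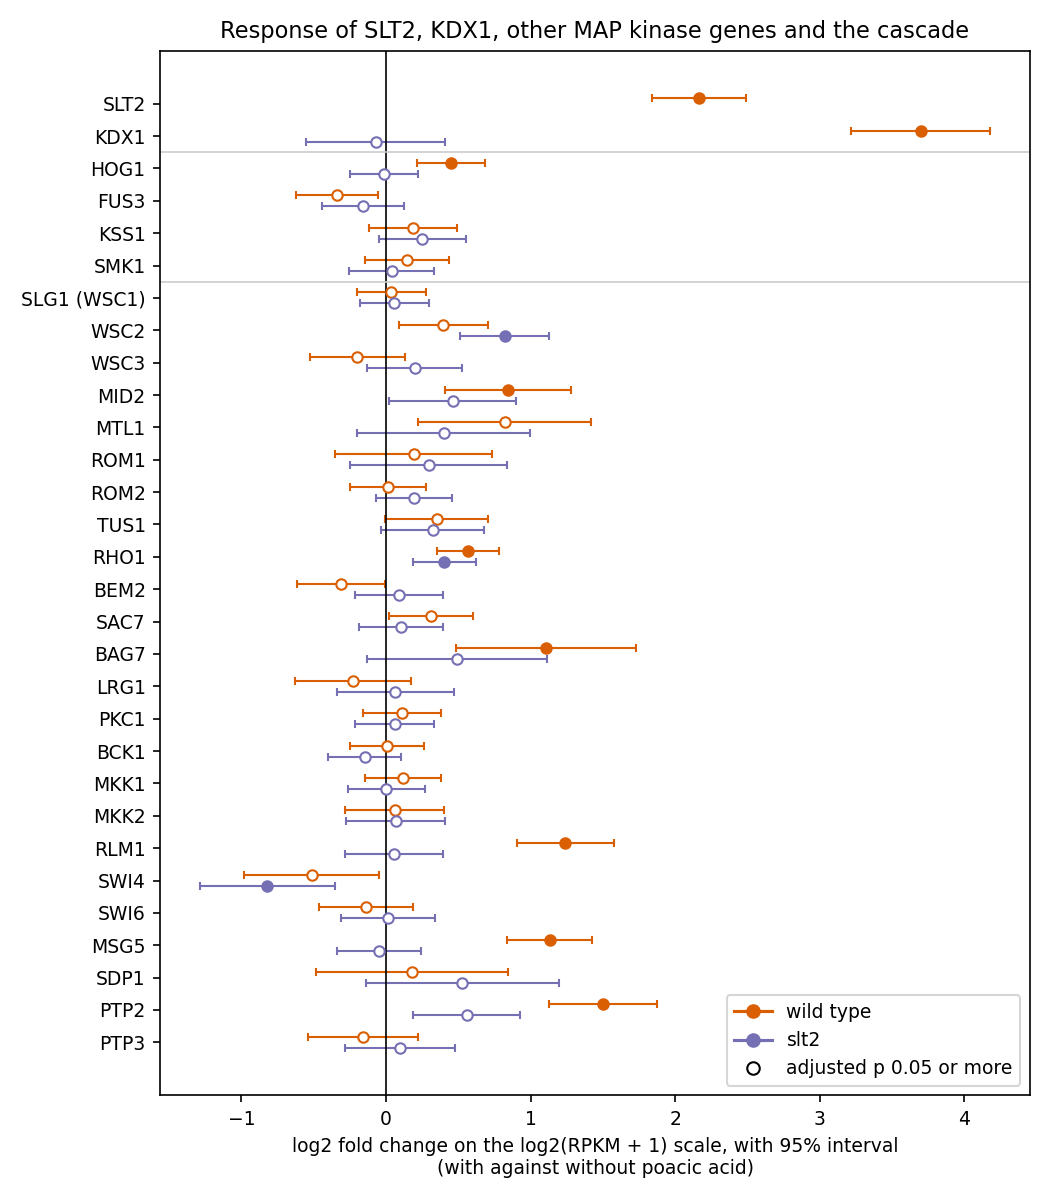
Response to poacic acid of SLT2, KDX1, the other MAP kinase genes and the cascade genes in wild type and in slt2, as log2 differences on the log2(RPKM + 1) scale with 95% intervals from limma. Filled points passed an adjusted p of 0.05. SLT2 (2.16) and KDX1 (3.70) lie furthest right in wild type, RLM1, MSG5 and PTP2 follow at 1.13 to 1.5, and KDX1 lies at -0.07 in slt2. SLT2 is not drawn in slt2.

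The pair was then read against 28 other genes known as targets of Slt2 and Rlm1, a list that includes RLM1, PTP2 and CHS3. Of these 28, 24 rose in wild type and 0 fell, beside 3.87% of all tested genes called upward and 1.96% downward. Their median log2 difference was 1.45 against 0.02 over all tested genes. In slt2, 9 rose and 4 fell, beside 5.29% of all tested genes upward and 3.17% downward, with a median of 0.40 against 0.03. The response was lower in slt2 for 13 of 28 and higher for 1, beside 0.996% lower and 0.723% higher over all tested genes. The median difference was -0.97 against 0.02. The list was chosen with earlier results of these data known, so the counts are descriptions.

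Some targets shared the calls of KDX1, a called response in wild type and a difference in slt2 that did not pass. PIR3, which encodes a covalently bound wall protein, was listed at 42.3, 30.7 and 72.1 RPKM in treated wild type, against 4.08, 2.38 and 4.19 RPKM in untreated wild type. In slt2 it was listed at 2.39, 4.43 and 0.86 RPKM with the compound and 2.31, 3.14 and 2.54 RPKM without it. Only the treated wild-type libraries were high, and the wild-type log2 difference was 3.38 (adjusted p = 9.59e-05), the slt2 one -0.17 (adjusted p = 0.855) and their difference -3.55 (adjusted p = 0.00218; all by limma). SRL3 averaged 128 ± 37.8 RPKM in treated wild type and 14.3 ± 0.922 RPKM in untreated wild type, and 8.98 ± 3.82 RPKM in treated slt2 and 5.22 ± 1.15 RPKM in untreated slt2 (SD, n = 3 each; 0.63 in slt2, adjusted p = 0.148; difference between the responses -2.41, adjusted p = 0.00218 by limma). Unlike KDX1, SRL3 was higher in every treated slt2 library (6.24 to 13.3 RPKM) than in every untreated one (3.93 to 6.15 RPKM).

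Other targets had opposite calls in the strains, up in wild type and down in slt2, where KDX1 had no call. PST1, a GPI-anchored wall protein, was listed at 116, 134 and 152 RPKM in treated wild type, against 46.2, 41.3 and 48.0 RPKM in untreated wild type. In slt2 it was listed at 15.9, 15.4 and 7.56 RPKM with the compound and 36.6, 33.0 and 23.9 RPKM without it. It rose in wild type (1.54, adjusted p = 0.00124) and fell in slt2 (-1.25, adjusted p = 0.00453; both by limma). HSP150, also a covalently bound wall protein, likewise rose in wild type (1.13, adjusted p = 0.00192) and fell in slt2 (-1.0, adjusted p = 0.00362), as did YNL058C (1.53, adjusted p = 4.12e-05, and -0.98, adjusted p = 0.00112; all by limma). PIR1 did not pass in wild type (0.14, adjusted p = 0.647) and fell in slt2, at 176 ± 12.6 RPKM with the compound and 500.5 ± 20.9 RPKM without it (-1.51, adjusted p = 2.15e-05 by limma). PUN1 was the 1 target with a higher response in slt2, at 219.9 ± 36.05 RPKM in treated slt2 and 35.1 ± 6.85 RPKM in untreated slt2, against 81.8 ± 18.2 and 30.7 ± 1.83 RPKM in treated and untreated wild type (1.26, adjusted p = 0.0246 by limma). That call was lost when single libraries were left out.

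A further set of targets rose in both strains, namely CWP1, DFG5, GSC2, PUN1, YLR194C, YMR295C, YPS1 and YPS3, although the slt2 calls of DFG5 and YMR295C were lost without single slt2 libraries. GSC2, the glucan synthase gene also called FKS2, was listed at 98.7, 119.8 and 108 RPKM in treated slt2 and 19.6, 20.3 and 18.0 RPKM in untreated slt2. In wild type it was listed at 23.0, 29.8 and 44.6 RPKM with the compound and 11.4, 9.92 and 11.1 RPKM without it. The treated slt2 libraries were the highest, with a log2 difference of 2.43 in slt2 (adjusted p = 5.53e-06) and 1.45 in wild type (adjusted p = 0.000326), and the difference between these did not pass (0.98, adjusted p = 0.0904; all by limma). With the compound GSC2 was 1.76 higher in slt2 than in wild type on the log2 scale (adjusted p = 2.93e-05), and the protease gene YPS1 1.01 higher (adjusted p = 0.00191; both by limma), opposite in sign to KDX1.

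The genes beside SLT2 were examined because the locus differs between the strains. YHI9 follows SLT2 on the same strand after a gap of 328 bases. It was listed at 36.7, 34.4 and 29.3 RPKM in untreated slt2, against 20.7, 22.3 and 20.8 RPKM in untreated wild type. The groups did not overlap, with a log2 difference of 0.63 and an adjusted p of 0.038 by limma, and the call was lost whichever of the 6 libraries was left out (adjusted p 0.0513 to 0.16). With the compound YHI9 was listed at 31.6 to 36.3 RPKM in slt2 and 23.3 to 31.8 RPKM in wild type, and these groups overlapped by 1 library (0.30, adjusted p = 0.2 by limma). RRM3, a DNA helicase gene 454 bases upstream of SLT2, had a log2 difference of 0.19 and did not pass. Of 6 neighbours, 3 on each side, YHI9 alone passed, beside 1.75% of all tested genes, and the largest difference was that of YHR032W-A, a short gene listed at 8.91 ± 3.78 RPKM in untreated slt2 and 3.43 ± 1.59 RPKM in untreated wild type (SD, n = 3 each; 1.14, adjusted p = 0.0905 by limma).

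Around KDX1 the response was not shared by its nearest neighbours. YKL162C, 547 bases downstream on the same strand, averaged 3.74 ± 0.51 RPKM in treated wild type and 3.48 ± 0.777 RPKM in untreated wild type (SD, n = 3 each; 0.09, adjusted p = 0.879 by limma). PIR3, described above, lies beyond it on the other strand, 4007 bases from KDX1. Upstream, the transcription elongation gene ELF1 averaged 184 ± 28.8 RPKM in treated wild type and 155 ± 6.21 RPKM in untreated wild type (0.23, adjusted p = 0.366 by limma). RCN1, which encodes a regulator of the phosphatase calcineurin and lies 3128 bases upstream, showed the reverse strain pattern. It was listed at 82.2, 84.9 and 67.5 RPKM in treated slt2 and 18.3, 17.8 and 14.0 RPKM in untreated slt2, against 19.9, 17.0 and 29.0 RPKM in treated wild type and 14.9, 15.2 and 13.3 RPKM in untreated wild type. Its response was higher in slt2 by 1.63 on the log2 scale (adjusted p = 0.00325 by limma).

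**Figure D4:**
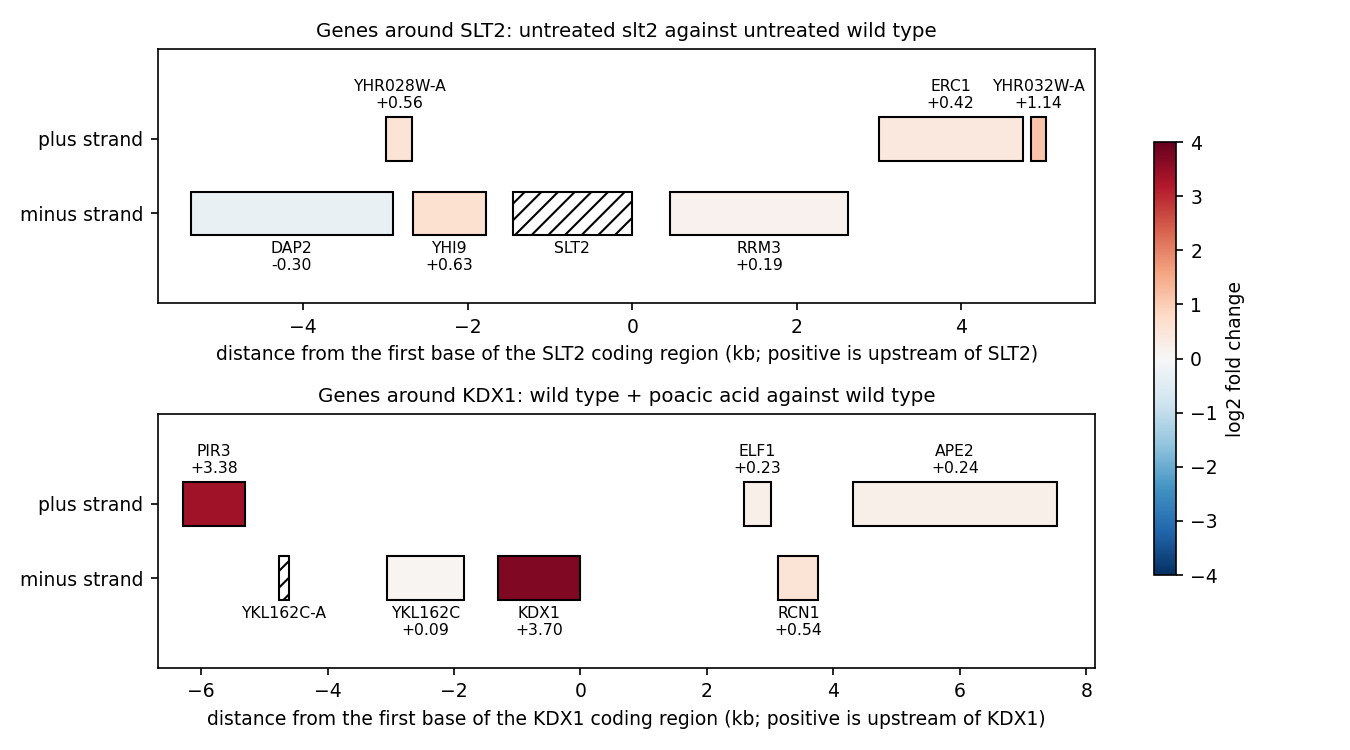
Annotated genes on each side of SLT2 (top) and KDX1 (bottom), drawn to scale by distance from the first base of the member's coding region and coloured by log2 difference. The upper panel shows untreated slt2 against untreated wild type, and the lower panel treated against untreated wild type. In the upper panel YHI9 (0.63) alone passed the test. SLT2 is hatched as the mutated gene and YKL162C-A as not tested. KDX1 (3.70) and PIR3 (3.38) stand out in the lower panel, with YKL162C (0.09) between them.

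The genes whose levels followed KDX1 most closely over the 12 libraries were named by Pearson correlation on the log2(RPKM + 1) scale among 6134 genes. They were YNR066C (r = 0.987), CHS3 (0.982), CHS7 (0.981), YKL102C (0.977), GFA1 (0.977) and SMF1 (0.976). These values describe libraries that share 4 group means, and mostly restate which genes were high in treated wild type. CHS3 encodes the main chitin synthase, CHS7 the chaperone that exports it from the endoplasmic reticulum, and GFA1 the enzyme of the first step of chitin precursor synthesis. SMF1 encodes a transporter of divalent metal ions.

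GFA1 was listed at 416, 463 and 371 RPKM in treated wild type and 119, 137 and 140.3 RPKM in untreated wild type, and at 60.9, 60.3 and 68.7 RPKM in treated slt2 and 79.97, 76.9 and 82.4 RPKM in untreated slt2. As for KDX1, the treated wild-type libraries were the highest and both slt2 groups were below untreated wild type. CHS3 was likewise highest in treated wild type and lowest in both slt2 groups, over a narrower range, at 108 ± 12.7 RPKM in treated wild type, 55.9 ± 2.75 in untreated wild type, 42.3 ± 1.35 in treated slt2 and 40.1 ± 1.51 in untreated slt2 (SD, n = 3 each). Of these 6 genes YKL102C came nearest to KDX1 in size of response in wild type, with a log2 difference of 3.54 (adjusted p = 7.15e-06 by limma). It was listed at 27.5, 21.1 and 34.7 RPKM in treated wild type and 1.86, 1.17 and 1.30 RPKM in untreated wild type. In slt2 it was listed at 0.425, 0 and 0.687 RPKM with the compound and 0.409, 0.529 and 0.677 RPKM without it. These slt2 values are all under the 1 RPKM of the filter, so YKL102C was tested through its wild-type values alone. Its difference between the responses (-3.74, adjusted p = 0.000186 by limma) mostly restates the wild-type rise. That difference ran from -5.04 to -2.37 over the alternatives that kept all libraries.

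**Figure D5:**
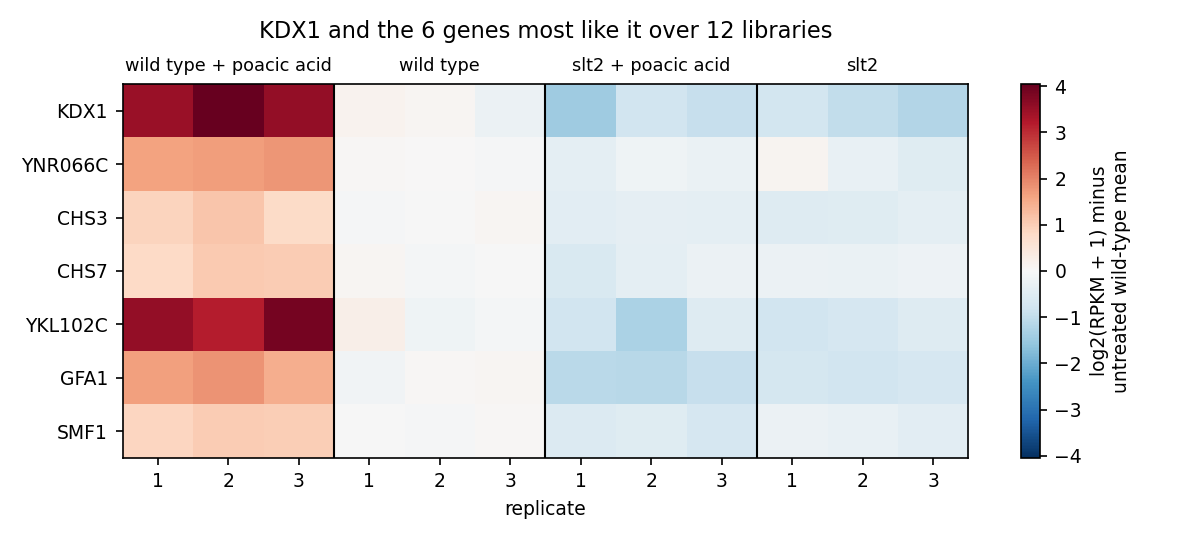
KDX1 and the 6 genes most like it over the 12 libraries, each drawn as log2(RPKM + 1) minus its own mean in untreated wild type. Columns are libraries in their 4 groups. KDX1 and YKL102C have the strongest colour in treated wild type, while CHS3, CHS7 and SMF1 are also highest there over a narrower range.

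Over the 6 wild-type libraries alone, SLT2 was followed most closely by YCL049C (r = 0.997), CMK2 (0.997), SRL3 (0.996), YPL088W (0.996), YNR066C (0.995) and AFR1 (0.994). KDX1 was followed by CRG1 (0.997), AFR1 (0.995), UFD1 (0.995), YNR066C (0.994), IMP2 (YMR035W, 0.993) and SMF1 (0.992). The members' own correlation was 0.983, which placed KDX1 at rank 35 for SLT2 and SLT2 at rank 19 for KDX1. All of these libraries fall in a treated and an untreated cluster, so r measures little besides that contrast and is given as a description.

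The genes named for likeness in wild type were not all alike in slt2. CMK2, a calmodulin-dependent protein kinase gene, followed SLT2 in wild type at 40.6, 43.3 and 43.9 RPKM with the compound and 17.7, 18.8 and 21.0 RPKM without it. In slt2 CMK2 was listed at 199, 188 and 179 RPKM with the compound and 29.3, 34.9 and 17.9 RPKM without it. Its treated slt2 libraries were the highest of the 12, and its response was higher in slt2 than in wild type by 1.68 on the log2 scale (adjusted p = 0.00325 by limma), opposite in sign to the difference of KDX1. AFR1, YPL088W, SRL3, YNR066C, SMF1 and CRG1 had lower responses in slt2, as KDX1 did, with differences between the responses of -1.64, -3.20, -2.41, -1.76, -1.23 and -2.58. Those of YCL049C, UFD1 and IMP2 did not pass (-1.28, -0.21 and 0.31; adjusted p = 0.052, 0.627 and 0.511 by limma).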

How the data were processed

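RNA was sequenced in 12 libraries, 3 in each of 4 groups. Per the labels' protocols, rRNA-depleted RNA was made into libraries with a strand-specific kit, and 300 to 450 bp inserts were selected. The deposited table gives RPKM values for 7126 genes, per the file headers, and the build was R64, per the submitters' processing notes. The sources used here do not name the aligner or the counting program, and do not say whether strand was used. The deposited values carry decimal commas, which were read as decimal points. Read numbers were recovered from RPKM and the deposited gene length, and 96.4 to 97.0% of values under 300 reads came out whole within 2%. They give the depths and counting limits, which cover counting error only.

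Genes at 1 RPKM or more in at least 3 libraries (6222) were tested with limma 3.58.1 in R 4.3.3 on log2(RPKM + 1) over all 12 libraries, with 1 mean per group, a trended prior variance and robust estimation, and Benjamini-Hochberg adjustment over all tested genes. Tests were two-sided with a threshold of 0.05. Fold changes on this scale understate those of low genes. The method was tested on simulated data. The ratio of the members was tested with an exact permutation test (SciPy 1.17.1). Of the table's IDs 6048 matched RefSeq and 6036 had the same coordinates. Sequences are from RefSeq (R64) and were aligned with Biopython 1.88 (BLOSUM62, gap opening 11, extension 1).

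The members and gene lists were chosen with earlier results of these data known. Named genes were the members, the other MAP kinase genes, the cascade, 3 neighbours on each side, the 6 genes most alike in each of 3 correlations (63 Ty genes left out), and up to 6 targets by the test of the difference between the responses. PUN1, GSC2, YPS1 and the other targets called in both strains were added after their values were seen. The alternatives tried were pseudocounts of 0.1 and 5, no filter, median-of-ratios scaling, a replicate block, a fit of the compared groups only, neither trend nor robust estimation, array weights and leaving out each library.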

Additional observations from a re-analysis of the deposited data

Results flagged for a closer look

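The results below had a response to poacic acid that differed between slt2 and wild type by the direct test, given as the slt2 response minus the wild-type response on the log2(RPKM + 1) scale with adjusted p by limma. With 3 libraries a group, no test for outlying libraries was run.

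KDX1 had the most negative difference of 6222 genes in the main fit, though not in every alternative, -3.77 (adjusted p = 3.33e-05). Of the cascade, RLM1 had -1.18 (adjusted p = 0.0136) and MSG5 -1.18 (adjusted p = 0.00482). Of the target list, PIR3 had -3.55 (adjusted p = 0.00218), PST1 -2.79 (0.000467), YNL058C -2.52 (3.33e-05), SRL3 -2.41 (0.00218), HSP150 -2.12 (0.000495) and PIR1 -1.64 (0.000733). These targets were named for their small adjusted p in this same test, so their values restate that choice.

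Among genes named for likeness to KDX1, YKL102C had -3.74 (adjusted p = 0.000186), GFA1 -1.98 (3.33e-05), YNR066C -1.76 (0.00156), SMF1 -1.23 (0.00101), CHS7 -1.17 (0.00218) and CHS3 -0.85 (0.0124). These genes were picked by correlation with KDX1 over these same 12 libraries. Their lower responses in slt2 were largely fixed by that choice and are descriptions. YKL102C was under 1 RPKM in every slt2 library, so its value mostly restates the wild-type rise. CRG1 had -2.58 (adjusted p = 0.0192), a call that was lost when any 1 of the untreated wild-type libraries was left out (adjusted p up to 0.0546). AFR1 had -1.64 (adjusted p = 0.00616) and YPL088W -3.20 (0.000186). RCN1, a neighbour of KDX1, and CMK2, which followed SLT2 in wild type, had higher responses in slt2, by 1.63 (adjusted p = 0.00325) and 1.68 (0.00325).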

How the results depend on the processing

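The wild-type responses of SLT2 (2.08 to 2.22 without single libraries) and KDX1 (3.52 to 3.80), the KDX1 difference between the responses (-3.90 to -3.58) and the strain differences of both genes in treated cells kept direction and call in every alternative run. The KDX1 strain difference without the compound (-0.98) lost its call at -0.50 with a pseudocount of 5, -0.92 with median-of-ratios scaling, -0.98 with neither trend nor robust estimation, and -1.09 to -0.87 without single libraries. The KDX1 slt2 response ran from -0.20 to 0.12 without single libraries and reversed at 0.12 and 0.04, without replicate 1 of treated and of untreated slt2. The log2 ratio difference of the members (1.76) ran from 1.55 to 1.92 without single libraries and was 1.53 from RPKM + 1. The cause was not tested. Counts of called genes moved as follows. The wild-type response (363) gave 671 with the replicate block, 181 with only the groups compared, 682 with array weights and 156 to 552 without single libraries. The slt2 response (526) gave 1137 with array weights and 231 to 671 without single libraries. The difference between the responses (107) gave 179 with the replicate block, 289 with array weights and 62 to 164 without single libraries. The strain difference without the compound (109) gave 729 with only the groups compared, 31 with neither trend nor robust estimation, 1142 with array weights and 3 to 45 without single libraries, and with the compound (511) it gave 330 with only the groups compared, 1375 with array weights and 327 to 874. Of 127 other called results for named genes, 101 kept their call in every alternative, 26 lost it in at least 1 and 0 reversed. Scaling moved the median of all genes by at most 0.08 (log2).

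Same-numbered libraries of a strain did not deviate together in every pair (r from -0.14 to 0.34), and not every library correlated best with its own number. With 3 libraries a group these correlations cannot show whether the replicate numbers are pairs. The main fit did not take them as pairs. The replicate block left the KDX1 and SLT2 calls in place. KDX1 in slt2 rests on 10 to 26 reads a library, so a small change there was not detectable at this depth.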
